A study of Mus musculus musculus x M. m. domesticus and Mus musculus domesticus and Mus musculus with 12 samples.

Results

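The genes described here encode components of the extracellular matrix. The list held 7 Ensembl genes in a fixed order, *Col3a1*, *Col1a1*, *Col1a2*, *Col4a1*, *Col4a2*, *Sparc* and *Dcn*, and its members were those with a row in the deposited table of 7000 genes. This left 5 genes, *Col3a1* (ENSMUSG00000026043_at), *Col1a2* (ENSMUSG00000029661_at), *Col4a2* (ENSMUSG00000031503_at), *Sparc* (ENSMUSG00000018593_at) and *Dcn* (ENSMUSG00000019929_at). *Col1a1* (ENSMUSG00000001506_at) and *Col4a1* (ENSMUSG00000031502_at) had no row and were not analysed here. The list was selected on expression in these same males, with the values of its genes across the 4 genotypes already known, so the genes' differences between genotypes are given as values with standard errors and no p-value. Counts of members past a threshold are given beside the share of all genes that passed it. Because of the selection, a count above that share is in part built in and is a description only.

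RNA came from whole testis of 12 male mice aged 60 days, 3 from each of 4 crosses, with the mother's strain written first. Fertile *DxD* males (LEWES/EiJ x WSB/EiJ) carry *M. domesticus* chromosomes only. Fertile *MxM* males, from PWK/PhJ mothers and CZECHII/EiJ fathers, carry *M. musculus* chromosomes only. The hybrids are reciprocal F1 males, fertile in *DxM* (LEWES/EiJ x PWK/PhJ) and sterile in *MxD* (PWK/PhJ x LEWES/EiJ). All 4 genotypes are crosses between inbred strains derived from wild mice, and WSB/EiJ and CZECHII/EiJ contribute to no hybrid. One array per male was used (Affymetrix Mouse Genome 430 2.0), with probes that follow the laboratory mouse genome. That genome is largely of *M. domesticus* origin, so probe mismatches could lower the values of *M. musculus* alleles. The study judges such effects not to be a major factor. Their part in the differences from *MxM* was not tested here. Values are log2 expression after quantile normalization, so a difference of 1 is a doubling. Levels are compared between males for the same gene and never between genes, because probes of different genes bind with different strength.

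Collagens are built from chains that wind into a triple helix. *Col3a1* encodes the single chain type of collagen III, and *Col1a2* encodes the chain that joins *Col1a1* products in collagen I; both collagens form the fibrils of loose connective tissue. *Col4a2* encodes a chain of collagen IV, the network-forming collagen of basement membranes, such as those around seminiferous tubules and blood vessels. *Sparc* encodes a secreted glycoprotein that binds collagen, and *Dcn* encodes decorin, a small proteoglycan that binds collagen fibrils and affects their spacing. In testis, fibrillar collagen lies mainly between and around the tubules, in the compartment that also holds Leydig cells, vessels and peritubular cells. Expression in whole testis is relative to the total RNA. More cells of a type, more RNA per cell and fewer cells of other types therefore cannot be told apart in these data. The study reports a large loss of postmeiotic germ cells in *MxD* testis, and the part of this loss in the values was not tested.

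All 5 genes had their highest mean in the sterile *MxD* males. Over all 7000 genes, 27.2% had the highest mean in *MxD*. For *Col3a1*, *Col1a2* and *Sparc*, each *MxD* male lay above all 9 fertile males, a separation seen in 5.47% of all genes. For *Dcn* and *Col4a2*, 2 of the 3 *MxD* males lay above every fertile male and the other lay within the fertile range.

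**Figure D1:**
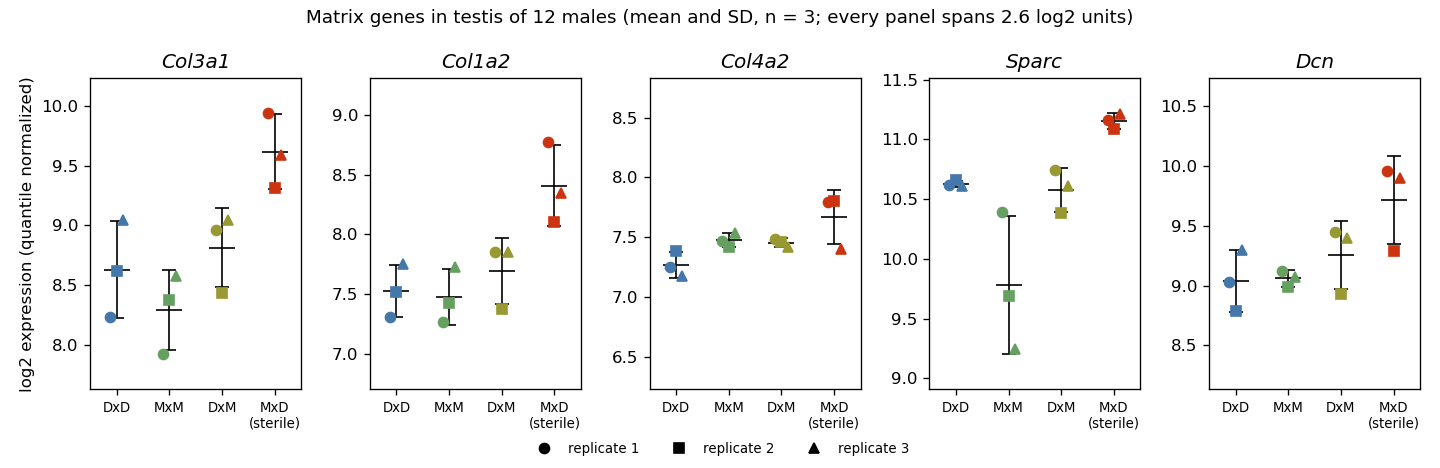
Log2 expression of the 5 matrix genes (y axis, one panel per gene) in the 4 genotypes (x axis). Points are single males with the marker giving the replicate number, and bars are the mean ± SD of 3 males. All *MxD* points of *Col3a1*, *Col1a2* and *Sparc* lie above those of the fertile males, and 1 *MxD* point of *Dcn* and of *Col4a2* lies among them.

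The fibrillar collagens came first in the size of the difference from *DxM*. *Col3a1* measured 9.94, 9.31 and 9.59 in the *MxD* males of replicates 1 to 3, against 8.96, 8.43 and 9.04 in *DxM*, 8.23, 8.62 and 9.04 in *DxD*, and 7.92, 8.38 and 8.57 in *MxM*. The sterile males were therefore the highest, and the ranges of the 3 fertile genotypes overlapped one another. The sterile males averaged 9.61 ± 0.31 (SD, n = 3), and the fertile genotypes 8.81 ± 0.33 (*DxM*), 8.63 ± 0.41 (*DxD*) and 8.29 ± 0.34 (*MxM*). The *MxD* mean was higher by 0.80 (standard error 0.25) than that of *DxM*, by 0.99 than that of *DxD* and by 1.32 than that of *MxM*, which are ratios of 1.74, 1.98 and 2.50. Among all 7000 genes sorted from the most raised in *MxD*, *Col3a1* stood at rank 24 against *DxM*, 51 against *DxD* and 37 against *MxM*.

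The *MxD* males had *Col1a2* values of 8.77, 8.10 and 8.34, against 7.85, 7.38 and 7.86 in *DxM*, 7.31, 7.52 and 7.75 in *DxD*, and 7.27, 7.43 and 7.73 in *MxM*. The order of the males resembled that of *Col3a1*, with replicate 1 the highest and replicate 2 the lowest of the sterile males. The *MxD* mean exceeded that of *DxM* by 0.71 (standard error 0.19), that of *DxD* by 0.88 and that of *MxM* by 0.93. These are ratios of 1.64, 1.84 and 1.91. *DxD* and *MxM* differed by 0.05 with a standard error of 0.19, which is within the spread between males.

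*Sparc* had a different distribution among the fertile males. It measured 11.2, 11.1 and 11.2 in *MxD* and 10.6, 10.7 and 10.6 in *DxD*, and these genotypes varied little, with SDs of 0.07 and 0.03. In *DxM* it measured 10.7, 10.4 and 10.6. The *MxM* males measured 10.4, 9.69 and 9.25, an SD of 0.58, and 2 of them lay below all other males. The *MxD* mean was higher by 0.58 (standard error 0.22) than that of *DxM*, by 0.53 than that of *DxD* and by 1.38 than that of *MxM*. The standard error shared by the 4 genotypes fell to 0.12 without *MxM* replicate 1 and to 0.15 without *MxM* replicate 3. In *MxM* replicate 3, the male with the lowest *Sparc* value, 131 genes were lower than in any other male by more than 1 on the log2 scale. No other array had more than 4 such genes. *Sparc* was not among the 131, since it measured 9.25 there and 9.69 in *MxM* replicate 2. Without *MxM* replicate 3 the *MxD* mean of *Sparc* exceeded that of *MxM* by 1.11.

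*Dcn* measured 9.96, 9.29 and 9.90 in *MxD*, 9.45, 8.93 and 9.40 in *DxM*, 9.03, 8.79 and 9.30 in *DxD*, and 9.12, 8.99 and 9.07 in *MxM*. *MxD* replicate 2 lay within the range of the *DxM* and *DxD* males. The *MxD* mean was higher by 0.46 (standard error 0.19) than that of *DxM*, by 0.68 than that of *DxD* and by 0.66 than that of *MxM*. The *DxD* and *MxM* means of this gene were 9.04 and 9.06.

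The basement membrane chain *Col4a2* had the smallest differences. It measured 7.80, 7.80 and 7.40 in *MxD*, 7.49, 7.46 and 7.42 in *DxM*, 7.25, 7.39 and 7.17 in *DxD*, and 7.47, 7.42 and 7.54 in *MxM*. *MxD* replicate 3 fell below every *DxM* and *MxM* male. The *MxD* mean was higher by 0.21 (standard error 0.10) than that of *DxM*, by 0.40 than that of *DxD* and by 0.19 than that of *MxM*. Without *MxD* replicate 3 the difference from *DxM* was 0.35 and that from *MxM* 0.32.

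**Figure D2:**
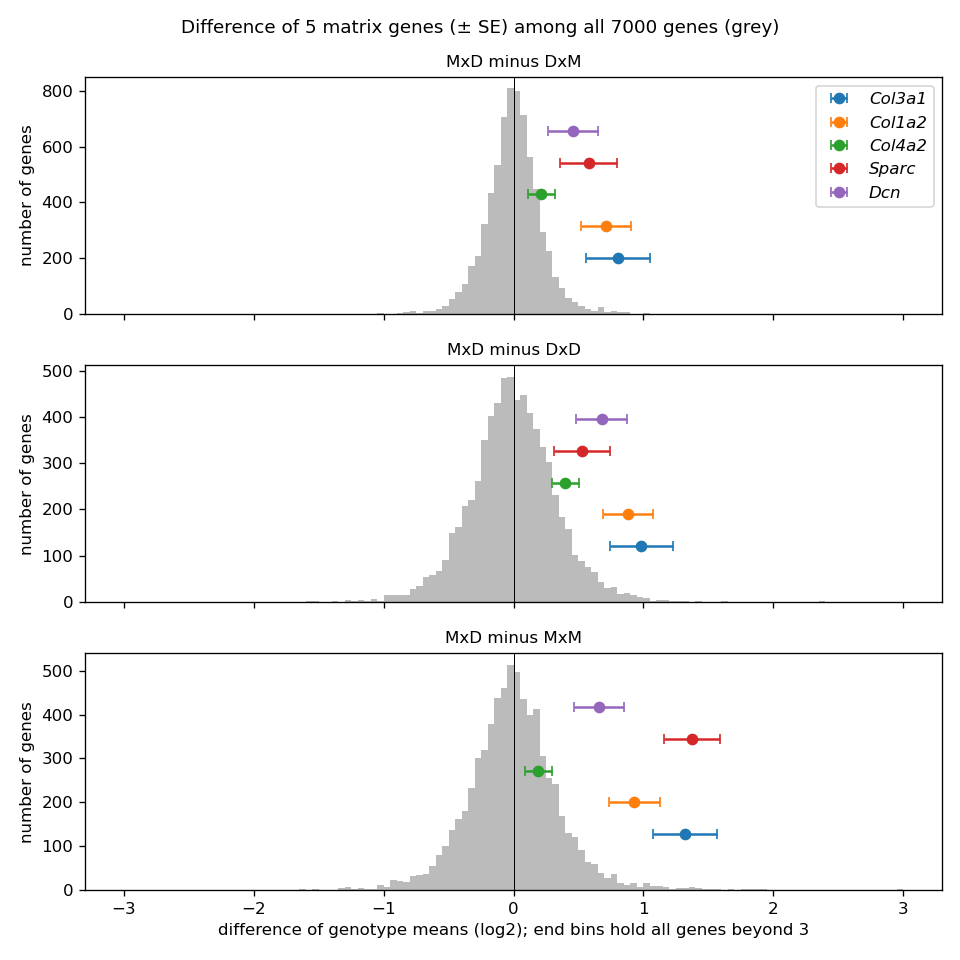
Difference of the *MxD* mean from each fertile genotype on the log2 scale (x axis) for the 5 matrix genes (coloured points ± the standard error of the limma fit, with heights chosen for legibility) over the histogram of all 7000 genes (grey, y axis is the number of genes). *Col3a1* lies at 0.80, 0.99 and 1.32 in the 3 panels, in the upper tail, and *Col4a2* at 0.21, 0.40 and 0.19.

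The comparison of the reciprocal hybrids is the one that holds the autosomal genotype constant, since *DxM* and *MxD* males have the same autosomes and differ in the parent that gave them and in their sex chromosomes and mitochondria. The 5 genes are autosomal in the mouse, so the same alleles, and the same mismatches to the probes, are present in both hybrids. By limma, a linear model that borrows information on the spread across genes, 0 of the 5 members passed Benjamini-Hochberg adjustment at 5% over all 7000 genes in this comparison, in which 6.5% of all genes passed in either direction. At an unadjusted p under 0.05, 4 of the 5 passed (21.8% of all genes), and by the methods' t-test (unequal variances) 2 did (15.0% of all genes). With the replicate number as a block, 3 members passed the adjusted threshold, *Col3a1*, *Col1a2* and *Dcn*, where 17.2% of all genes did. In the fit without a block *Col1a2* and *Sparc* passed without *MxM* replicate 1, where 7.8% of all genes passed, and without *MxM* replicate 3, where 9.53% did. Without *MxD* replicate 2, *Col1a2* and *Dcn* passed, where 5.56% of all genes did. Across genes, hybrids with the same replicate number deviated together from their genotype means, with r of 0.756, 0.565 and 0.411 for replicates 1 to 3.

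Against the within-species crosses more members passed. The members were selected on these values, so counts above the share of all genes are in part fixed by the selection. Between *MxD* and *DxD*, 4 of the 5 members passed the adjusted threshold, all higher in *MxD*, where 31.0% of all genes passed in either direction and 15.9% were higher in *MxD*. The exception was *Sparc*. Between *MxD* and *MxM*, 4 of the 5 passed, all higher in *MxD*, where 30.3% of all genes passed and 13.0% were higher in *MxD*, and here the exception was *Col4a2*. Since the 3 comparisons share the *MxD* males, they are not independent. The methods' t-test, in its unequal-variance form and after the same adjustment, passed 1 member against *DxD*, which was *Sparc* (9.34% of all genes passed). Against *MxM* it passed 0 members, where it passed 0.0429% of all genes and where 2 members and 1686 of all 7000 genes had an unadjusted p under 0.05. The limma fit shares 1 spread per gene over the genotypes, but the genotypes differed in spread. The mean variance within genotype was 0.0879 in *MxM*, 0.0147 in *DxD*, 0.0203 in *DxM* and 0.0278 in *MxD*. When single males were left out of the limma fit, 1536 to 2605 of all 7000 genes passed against *DxD* and 1481 to 2158 against *MxM*. With all males 2170 and 2122 passed, so calls gained or lost by members are to be read beside these counts. *Col3a1* and *Col1a2* passed each time in both comparisons. *Dcn* was lost against *DxD* without *DxD* replicate 1 or 2 or *MxD* replicate 1 or 3, and against *MxM* without *MxM* replicate 2 or *MxD* replicate 1 or 3. *Col4a2* was lost against *DxD* without *DxD* replicate 3 or *MxD* replicate 2 and passed against *MxM* without *MxD* replicate 3, and *Sparc* passed against *DxD* without *MxM* replicate 1 or 3.

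Between the fertile genotypes *DxD* and *MxM*, 1 of the 5 members passed the adjusted limma threshold (31.9% of all genes did), and this was *Sparc*, higher by 0.85 in *DxD* (standard error 0.22). Without *MxM* replicate 3 the difference of *Sparc* was 0.59, and without *MxM* replicate 1 it was 1.16. *Col3a1* was higher by 0.34 in *DxD* with a standard error of 0.25 and overlapping ranges. *Col4a2* was lower in *DxD* than in *MxM* by a log2 difference of -0.21 (standard error 0.10), with no overlap between the males. The fertile hybrid *DxM* exceeded *DxD* by 0.18 and *MxM* by 0.52 in *Col3a1*, with standard errors of 0.25 and overlapping ranges. In *Sparc* it differed by -0.05 from *DxD* and by 0.80 from *MxM*, with a standard error of 0.22.

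Males of one genotype also differed from one another in these genes, a measure that does not involve the differences between genotypes. The SD within genotypes, pooled over the 12 males, was 0.35 for *Col3a1*, 0.27 for *Col1a2*, 0.31 for *Sparc* and 0.27 for *Dcn* on the log2 scale. The median over all genes was 0.13, and 95.4%, 92.1%, 93.9% and 92.0% of genes had a smaller SD than these members in the same order. *Col4a2* had an SD of 0.13, close to the median gene. The members with the largest difference between the hybrids were thus also widely spread between males of one cross.

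The fibrillar collagen genes varied together between males of the same genotype. Each male's deviation from its genotype mean was taken for each gene, and over the 12 males the deviations of *Col3a1* and *Col1a2* had a Pearson r of 0.95 and a Spearman rho of 0.94. *Col3a1* was lowest in *DxD* replicate 1 (-0.40), *DxM* replicate 2 (-0.38) and *MxM* replicate 1 (-0.37), and *Col1a2* was also below its genotype mean in these males, at -0.22, -0.32 and -0.21. Without the 2 males farthest from the median of *Col3a1*, r was 0.93, and with the replicate means taken out as well it was 0.97. Of the 6999 other genes in the table, *Col1a2* had the highest r with *Col3a1*, with a median r over those genes of 0.04. The next, ENSMUSG00000064158, whose symbol the files do not give, had an r of 0.93, and the gene at rank 5, ENSMUSG00000027480, one of 0.89. The pooled deviations share the same arrays and the same normalization, and only 3 males define each genotype mean, so r is given as a description with no test.

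*Dcn* followed the fibrillar collagens less closely, with r of 0.64 with *Col3a1* (rho 0.66) and 0.72 with *Col1a2* (rho 0.70). It ranked 120 among the 6999 other genes by its r with *Col3a1*. *Sparc* did not follow, with r of -0.31 and rho of -0.07, and its value rests on the *MxM* males, whose *Sparc* deviations were 0.62, -0.09 and -0.53 while those of *Col3a1* were -0.37, 0.09 and 0.28. Leaving out each male in turn gave r from -0.51 to 0.23 for this pair. *Col4a2* had r of -0.05 with *Col3a1*, 0.08 with *Col1a2* and -0.44 with *Dcn*. With the replicate means taken out as well, its r was 0.40 with *Col3a1* and 0.53 with *Col1a2*, so that no direction can be given for these pairs.

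**Figure D3:**
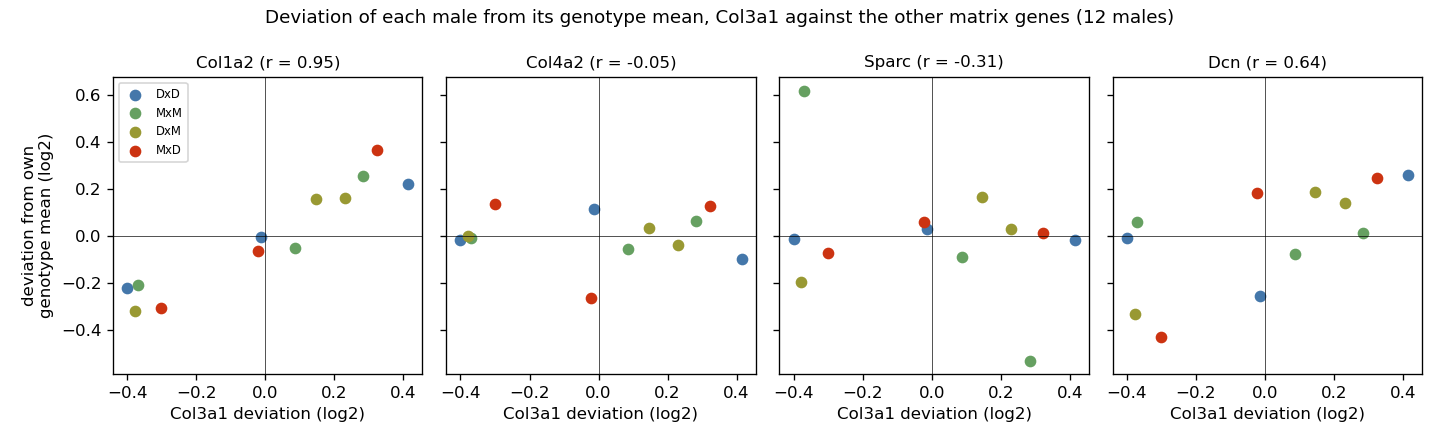
Deviation of each male from the mean of its own genotype on the log2 scale, for *Col3a1* (x axis) against *Col1a2*, *Col4a2*, *Sparc* and *Dcn* (y axes), with 1 point for each of 12 males coloured by genotype. The points of *Col1a2* lie along a rising line (r = 0.95), those of *Dcn* follow it loosely (r = 0.64), and the widest points of *Sparc* belong to *MxM* males.

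By Pearson r over the 12 males with the differences between genotypes included, *Col1a2* was again first among the 6999 other genes, at 0.97. The gene ENSMUSG00000067194, whose symbol the files do not give, was second at 0.92. ENSMUSG00000031375 at rank 3 (r of 0.90) and ENSMUSG00000025056 at rank 5 (0.89) likewise have no symbol there, so their function was not looked at. Next among genes with a symbol was *Spinlw1*, a protease inhibitor gene named in the study's gene list, at rank 4 with an r of 0.90. That list holds genes selected for differences of *MxD* in these males, and the members were also selected on these values. A high r between them is thus in part fixed by the selection. *Dcn* stood at rank 21, *Sparc* at 517 and *Col4a2* at 1132.

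The study's gene table assigns genes to the testis cell type in which they are most induced, as somatic (Sertoli), mitotic, meiotic or postmeiotic. The 1997 rows used here hold genes of chromosomes 1 to 5 only. *Col3a1*, on chromosome 1, is the only member in these rows and stands in the mitotic class, although fibrillar collagen is known as a product of connective tissue cells, which are not among the cell types of the table. Between the hybrids the median difference was 0.16 for 367 mitotic genes, 0.11 for 142 somatic genes, -0.04 for 324 meiotic genes and -0.20 for 269 postmeiotic genes. The difference of *Col3a1*, at 0.80, was above that of every other gene of the 4 classes in these rows. Against *DxD*, 2 other mitotic and 2 somatic genes had a larger difference than *Col3a1*. Against *MxM*, 2 mitotic, 1 somatic, 5 meiotic and 1 postmeiotic genes had a larger one. *Col1a2*, at 0.71, *Sparc*, at 0.58, and *Dcn*, at 0.46, lay above the 95th percentile of the mitotic class, which was 0.42, and *Col4a2* lay at 0.21. These genes have no class in the rows used. All members, *Col3a1* included, were selected with these values known, so their places beside the classes are descriptions only. The mitotic and postmeiotic classes moved with genotype in the same arrays. Relative to the median over 12 males, class medians per male for mitotic genes were 0.10 to 0.23 in *MxD* and -0.13 to 0.06 in the fertile males. For postmeiotic genes they were -0.21 to -0.11 and 0.01 to 0.10. The other classes did not separate the sterile males. Somatic medians were 0.04 to 0.09 in *MxD*, below the 0.12 of *MxM* replicate 3. The meiotic median of *MxD* replicate 2 (-0.009) lay above that of *DxM* replicate 1 (-0.02). The part of these class shifts in the values of the matrix genes was not tested.

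**Figure D4:**
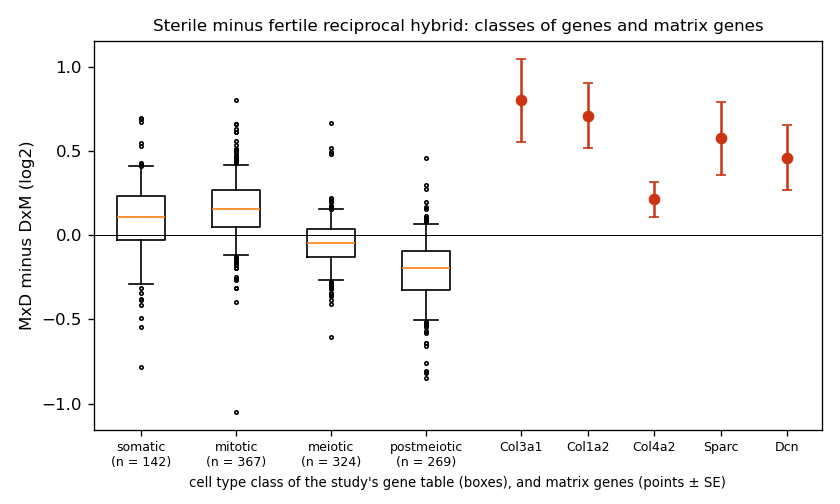
Difference of the *MxD* from the *DxM* mean (y axis, log2) for the genes of 4 cell type classes in the rows of the gene table used (boxes are quartiles with the median, whiskers reach the 5th and 95th percentiles, dots are genes outside them) and for the 5 matrix genes (red points ± standard error). *Col3a1* at 0.80 is also the topmost dot of the mitotic class, and *Col4a2* at 0.21 lies within the range of the somatic and mitotic boxes.

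For another interstitial cell type, 1 gene could be read, and only through the study's list of genes selected for differences of *MxD*. *Cyp17a1*, a steroidogenic enzyme of Leydig cells and the only one of 8 Leydig markers on a list that could be matched by symbol, measured 11.2, 11.2 and 11.3 in *MxD*. It measured 10.6, 10.7 and 10.4 in *DxM*, 9.84, 10.6 and 9.97 in *DxD*, and 9.69, 9.54 and 10.7 in *MxM*, so that every *MxD* male was above every fertile male. *MxD* exceeded *DxM* by 0.67 (standard error 0.27, limma adjusted p = 0.175), *DxD* by 1.09 (limma adjusted p = 0.0103) and *MxM* by 1.26 (limma adjusted p = 0.00526). The study selected *Cyp17a1* on these males, so its values and p-values are not independent evidence. The study's list through which it matched holds postmeiotic genes higher and mitotic genes lower in sterile males. Being higher in *MxD*, *Cyp17a1* stands there as a postmeiotic gene. Postmeiotic genes entered that list for being higher in sterile males, so the direction of *Cyp17a1* was fixed by the selection. Between males of one genotype its deviations had r of 0.24 with *Col3a1*, 0.30 with *Col1a2* and 0.32 with *Col4a2*, and of -0.55 with *Sparc* and -0.18 with *Dcn*. Markers of fibroblasts, peritubular myoid, endothelial, macrophage, blood, Sertoli and germ cells could not be matched by symbol, and the part of any cell type in the matrix gene values was not tested.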

How the data were processed

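Testis expression was analysed for 12 males, 3 per genotype, grouped by the cross in the labels. Per the methods, the authors grouped Affymetrix probes by Ensembl gene through chip description files of BRAINARRAY (version 11), summarised them with PLIER, retained only genes detected in every male and applied quantile normalization. The deposited log2 values were analysed without further scaling, and their sorted values are identical in the 12 arrays. The number of arrays limits the precision. All 7000 genes were fitted with limma 3.58.1 (R 4.3.3), 1 coefficient per genotype and a shared spread, two-sided, with Benjamini-Hochberg adjustment over all genes at 5%. Nothing in the labels links males to litters, so the spread is that between these males.

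Same-numbered males deviated together across genes between *MxD* and each fertile genotype (r from 0.152 to 0.756, each above 0.1). Blocked values are therefore given as an alternative where a call changes. Beyond the number, no label pairs males of different crosses. Any such pairing is read from these values only, and it is not established. Between *DxD* and *MxM* the lowest r was 0.0744, and between *MxM* and *DxM* it was -0.0511. Males of unlike number were not compared in this way.

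The members and lists were chosen with earlier results of these data known. All members are named with every male's value. The other named genes are the marker matched by symbol and the genes most correlated with *Col3a1*. A list of 152 further matrix genes had been planned, but the only pairing of Ensembl identifiers with symbols used here was the study's list of 45 named genes, through which 0 of them and 1 of 84 cell type markers matched. Identifiers of the 2 members with no row are given as listed. Classes and chromosomes come from the study's gene table, of which 1997 rows were used. The alternatives tried were the methods' t-test (unequal variances), the replicate block, a trended and robust limma prior, leaving out the dimmest 25% of genes, arrays centred on the median of 2005 autosomal genes (from those rows and the list of named genes), and each male left out in turn. Figures were drawn with matplotlib 3.10.9.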

Additional observations from a re-analysis of the deposited data

How the results depend on the processing

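The differences of *Col3a1* between *MxD* and each fertile genotype, and between *DxD* and *MxM*, kept their sign under each alternative applied to them. They stayed within 1 within-genotype SD of the reported values. The block, and leaving out a male of a genotype outside the comparison, cannot change these differences. The SD of 0.35 is also as large as the difference between *DxD* and *MxM*, 0.34, so this limit is wide there. Leaving out each male in turn gave 0.61 to 0.95 against *DxM*, 0.78 to 1.19 against *DxD*, 1.14 to 1.47 against *MxM* and 0.13 to 0.54 between *DxD* and *MxM*. The *Col3a1* difference of *DxM* from *DxD*, reported as 0.18, became -0.02 without *DxD* replicate 1. The counts of members past the threshold were put through the alternatives after seeing the data. Against *DxM* the count was 0, and it was 3 with the replicate block, 1 with limma's trend and robust prior (462 of all 7000 genes passed), 1 with arrays centred on their autosomal median (530 passed), *Col1a2* in both, and 0 to 2 when each male was left out. The methods' t-test (unequal variances) gave 1 against *DxD*, 0 against *MxM* and 0 between *DxD* and *MxM*. Leaving out each male gave 3 to 5 against *DxD*, 3 to 4 against *MxM* and 1 to 2 between *DxD* and *MxM*, where *Col4a2* was added without *MxD* replicate 3. With the replicate block no other call of a member changed. Over all 7000 genes, the count against *DxM* was 455 and became 1201 with the block, 172 to 667 without each male, and 0 with the methods' t-test (1050 at an unadjusted p under 0.05). It fell to 172 without *MxD* replicate 3, and to 217, 254 and 206 without each *DxM* male. That t-test also gave 654 genes against *DxD*, 3 against *MxM* and 468 between *DxD* and *MxM*, where limma gave 2170, 2122 and 2230, and where leaving out each male gave 1536 to 2605, 1481 to 2158 and 1667 to 2554. The cause of these changes, and the part of the larger variance within *MxM* (0.0879) in them, were not tested. Removing the dimmest 25% of genes changed no call of a member. The planned counts over further matrix genes were not run, since none could be matched by symbol.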
